A study of Mus musculus with 8 samples.

Results

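The genes described are *Pi16* and 4 other genes of the CAP superfamily, *Crispld1*, *Crispld2*, *Glipr1* and *Glipr2*, which make 5 of the 49315 Ensembl genes in each count table. *Pi16* was chosen by its large rise in CPM with simvastatin in these same libraries, so its change is a description and carries no test. The others were named for their CAP domain. All 5 were among the 16126 genes tested. *Pi16* met the count filter only through its simvastatin libraries, as its controls held 5 to 10 counts each. The cells were cardiomyocytes of C57/Bl6 embryos at embryonic day 12.5, male and female pooled, grown in culture. One group of 4 libraries received control medium and the other 4 libraries received 10 µM simvastatin, an inhibitor of the enzyme that makes mevalonate, the precursor of sterols and isoprenoid lipids. How long the cells were in simvastatin, and whether the replicates were separate cultures, is not stated in the labels. A p-value here therefore reflects the spread of these 8 libraries, and that spread may be technical.

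CAP proteins share a compact sandwich fold and are mostly secreted or bound to membranes. PI16, peptidase inhibitor 16, is known as an inhibitor of cardiomyocyte growth whose level rises in failing hearts, and also marks a class of fibroblasts in adult connective tissue. CRISPLD1 and CRISPLD2 are secreted proteins that carry LCCL domains beside the CAP domain, GLIPR1 is a membrane protein first found in glioma, and GLIPR2, also called GAPR-1, sits on the cytosolic face of the Golgi and binds the autophagy protein Beclin 1.

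Library totals ran from 30474586 to 35215640 counts. The header of each count column names a set: replicates 1 and 3 of each group are set 1 and replicates 2 and 4 are set 2. The meaning of a set is not stated in the labels or headers. The headers also number the libraries within a set, so that control replicates 1 and 2 share a number, and nothing says whether they share cells. The 8 cardiomyocyte markers, among them *Tnnt2* and *Myh6*, were all detected. Their summed level was 40700 to 51600 CPM (counts per 1e6 of the library's scaled total) in controls and 47300 to 52500 CPM with simvastatin. Of the 8, *Myh7* rose, from 1440 ± 347 to 3200 ± 706 CPM (edgeR adjusted p = 0.00255), and none fell. Over all genes tested 7.79% were called higher and 9.61% lower.

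RefSeq promoter windows, 250 bases before to 50 after a gene's start on GRCm38.p6, were at hand for 3 of the 5 genes, *Pi16*, *Crispld2* and *Glipr2*. They were searched on both strands for 7 motifs. For KLF factors the letters were CACCC, and for the TEAD factors of the Hippo pathway they were CATTCC. FOXO factors were searched with the letters TGTTTAC, SRF by its CArG box, and the sterol factor SREBP by the letters TCACNCCAC. The other motifs were the TATA box with the letters TATAAA and the E-box with the letters CACGTG. The following 3 stretches of 30 bases show 1 match for each gene, printed 5′ to 3′ on the plus strand with the motif in capitals. A different motif was picked for each gene, so the stretches do not compare the gene that rose with the 2 that fell.
Pi16, chr17:29318717-29318746, CACCC on the opposite strand: gcagaggacctgGGGTGggcacttaatgtt
Glipr2, chr4:43957608-43957637, CArG box: gctgcctttgCCTTATAAGGcggggccggg
Crispld2, chr8:119992191-119992220, E-box: accccggctcagCACGTGcttcccggtggt
The *Pi16* match lay 153 to 149 bases before the RefSeq start and was the only match to any of the 7 motifs in that window. CACCC is common, and 57.5% of all 32851 windows held it. The CArG box of *Glipr2* reads the same on both strands and lay 84 to 75 bases before the start. It was among 1.63% of windows with such a box. *Glipr2* also had 2 CACCC matches. *Crispld2* had 4, and its E-box, 235 to 230 bases before the start, was of a kind found in 7.15% of windows. In the files *Pi16* starts at 29318877, downstream of its site. GENCODE M21 also lists a *Pi16* transcript whose first exon runs from 29317680 to 29319391, so that there the site falls in its 5′ UTR. The *Glipr2* site falls in the UTR of the first exon, 43957401 to 43957773, of a GENCODE M21 transcript, and the *Crispld2* site lies in no exon there. A match describes letters in a window and says nothing of binding.

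*Pi16* was close to silent in control cells and clearly counted in simvastatin-treated cells. The gene lies on chromosome 17, 29318877 to 29329413, plus strand, and none of its exon bases is shared with another gene. The 4 controls held 8, 5, 7 and 10 counts, or 0.228, 0.148, 0.20 and 0.324 CPM for replicates 1 to 4. The simvastatin libraries held 550, 201, 448 and 196 counts, or 17.3, 5.79, 14.5 and 6.45 CPM. Every treated library stood far above every control, and among treated libraries the pair of set 1 stood above the pair of set 2. The means were 0.225 ± 0.0737 and 11.0 ± 5.77 CPM (SD, n = 4 per group), a ratio of 48.9. The fitted log2 fold change was 5.60 ± 0.47 (SE), the fourth largest rise of all genes tested. Only 30 counts over all control libraries support the lower level, so the size of the fold rests on few reads.

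Within set 1 the *Pi16* mean went from 0.214 to 15.9 CPM, and within set 2 from 0.236 to 6.12 CPM. The ratios were 74.2 and 26.0, and the fitted log2 fold changes 6.17 ± 0.33 and 4.69 ± 0.36. The 2 sets were close in controls and apart in treated libraries. The difference between the 2 log2 fold changes, set 2 minus set 1, was -1.50 ± 0.54 in an interaction fit and did not pass (edgeR adjusted p = 0.295). That fit used the values by which *Pi16* was chosen, and its control levels rest on few reads, so the difference is a description.

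**Figure D1:**
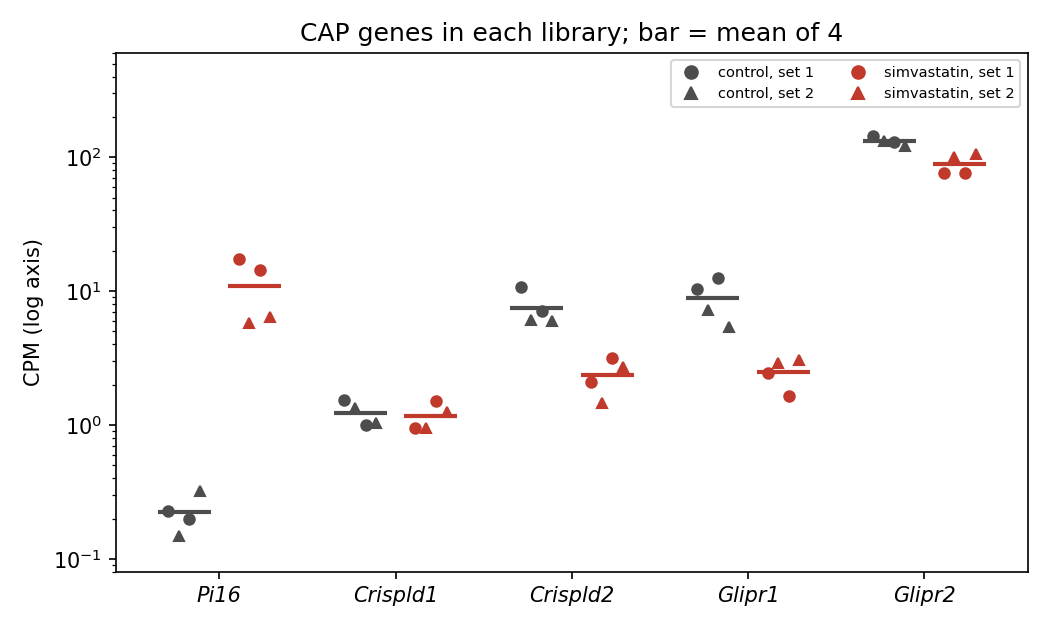
CPM of the 5 CAP genes in each of 8 libraries on a log axis, with controls in grey, simvastatin libraries in red, circles for set 1, triangles for set 2 and a bar at the mean of 4 libraries. Pi16 lies below 0.4 CPM in every control and above 5 CPM in every simvastatin library, while Crispld2, Glipr1 and Glipr2 lie lower with simvastatin and Crispld1 overlaps.

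Of the 4 other genes, 3 fell with simvastatin, and the fourth, *Crispld1*, did not pass (unadjusted p = 0.782 in edgeR). *Crispld2* and *Glipr1* were 3.15 and 3.56 times higher in controls and *Glipr2* 1.47 times. Over all 16126 genes tested 9.61% were called lower and 7.79% higher by the quasi-likelihood test of edgeR, at a Benjamini-Hochberg adjusted p under 0.05. All tested genes had a median log2 fold change of 0.01. For the 5 CAP genes, among them *Pi16*, chosen for its rise, the median was -0.55, a value that rests on the choice of list. Groups that do not overlap were also common in the whole table: 12.1% of genes were lower and 11% higher in every treated library than in any control.

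*Crispld2* encodes a secreted protein of lung and facial development that is known to respond to glucocorticoids (chromosome 8, 119992438 to 120052793, plus strand). It stood at 10.7, 6.07, 7.07 and 5.99 CPM in control replicates 1 to 4. With simvastatin it stood at 2.11, 1.47, 3.19 and 2.70 CPM. The lowest control was above the highest treated library. The mean fell from 7.46 ± 2.22 to 2.37 ± 0.745 CPM, with a log2 fold change of -1.66 ± 0.28 (edgeR adjusted p = 0.00239). The sets gave like values, -1.76 in set 1 and -1.54 in set 2.

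*Crispld1*, its closest relative in the list, is a gene linked to calcium handling in failing heart muscle (chromosome 1, 17727045 to 17766344, plus strand). Controls held 1.54, 1.33, 1.0 and 1.04 CPM and simvastatin libraries 0.945, 0.950, 1.52 and 1.25 CPM. The groups overlapped almost completely, with means of 1.23 ± 0.255 and 1.17 ± 0.274 CPM. Its log2 fold change was -0.08 ± 0.27 (edgeR adjusted p = 0.893), and its sign turned without control replicate 1 (0.04) or simvastatin replicate 1 (0.01) or 2 (0.00). Its 30 to 54 counts per library limit what could be seen. The exons of *Crispld1* share 12.1% of their bases with the antisense gene *Gm16070*, which held 3 counts in all controls and 1 in all treated libraries.

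*Glipr1* is known as a p53-responsive gene with pro-apoptotic activity in tumour cells (chromosome 10, 111985448 to 112002631, minus strand). Controls held 10.4, 7.28, 12.6 and 5.41 CPM, and the 2 highest were those of set 1. Treated libraries held 2.43, 2.91, 1.64 and 3.06 CPM, all below the lowest control. The mean fell from 8.92 ± 3.20 to 2.51 ± 0.637 CPM, a log2 fold change of -1.83 ± 0.29 (edgeR adjusted p = 0.00178). The fall was -2.51 ± 0.31 in set 1 and -1.09 ± 0.23 in set 2. The exons of *Glipr1* share 22.8% of their bases with *Krr1*, a ribosome biogenesis gene on the opposite strand. Whether counting used strand is not stated in the labels, so reads there cannot be told apart. *Krr1* itself held 33.0 ± 3.34 CPM in controls and 31.7 ± 3.52 CPM with simvastatin, and it did not pass (edgeR adjusted p = 0.814).

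*Glipr2* was the most abundant of the 5 (chromosome 4, 43957401 to 43979118, plus strand; no exon base shared with another gene). Controls held 143, 133, 129 and 121 CPM. Treated libraries held 76.5, 99.9, 76.5 and 106 CPM, with the pair of set 1 lower than the pair of set 2. The groups did not overlap. The mean fell from 132 ± 9.28 to 89.6 ± 15.3 CPM, a log2 fold change of -0.55 ± 0.13 (edgeR adjusted p = 0.0122). In set 1 alone the log2 fold change was -0.85 ± 0.14 (edgeR adjusted p = 0.0159), and in set 2 alone it was -0.31 ± 0.09 and did not pass (edgeR adjusted p = 0.053).

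**Figure D2:**
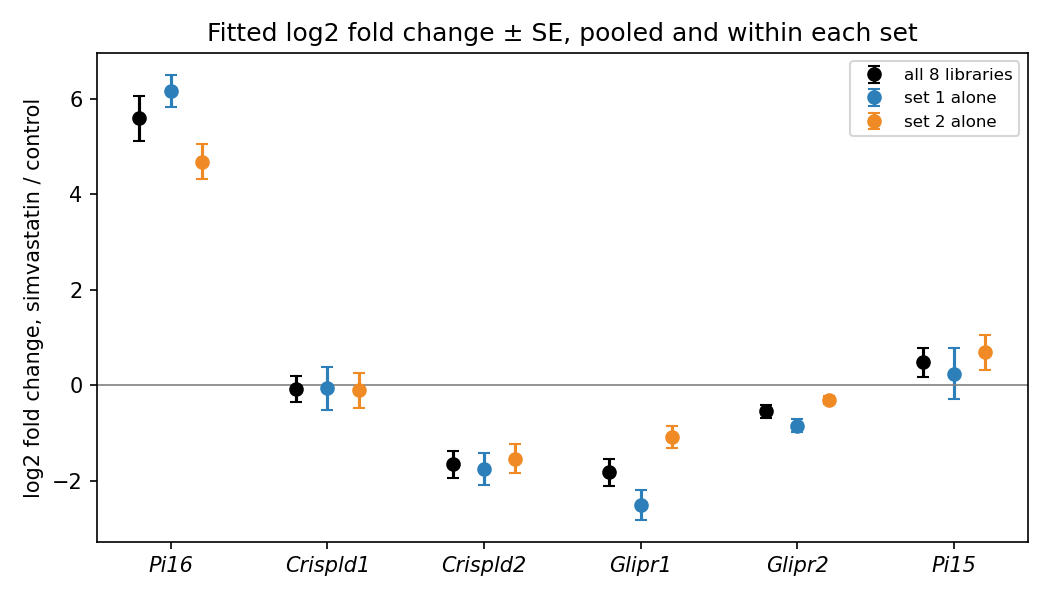
Fitted log2 fold change of simvastatin against control with its SE for the 5 CAP genes and Pi15, from all 8 libraries (black), set 1 alone (blue) and set 2 alone (orange). For Pi16, Glipr1 and Glipr2 the change was smaller in set 2 than in set 1 (4.69 against 6.17 for Pi16), and no such difference passed its test.

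*Pi16*, *Glipr1* and *Glipr2* thus moved in different directions but each had its smaller change in set 2. The differences between sets, set 2 minus set 1, were 1.41 ± 0.37 for *Glipr1* and 0.52 ± 0.16 for *Glipr2*. In the interaction fit 0 of the 5 genes passed in edgeR, with adjusted p of 0.152 for *Glipr1* and 0.214 for *Glipr2*. An unadjusted p under 0.05 was reached by 3, among them *Pi16*, which was chosen by these values. Each set holds 2 libraries per group, and a missed threshold does not show that the sets changed alike. Over all genes 0.0558% passed that test and 11.5% had an unadjusted p under 0.05. Levels of the 5 genes between sets, with treatment in the model, gave 0 calls in edgeR, as for all genes (0%). There 1 of the 5 genes had an unadjusted p under 0.05, against 17.6% of all genes. That gene was *Pi16*, with a log2 difference of -1.03 ± 0.30, set 2 minus set 1 (edgeR adjusted p = 0.175).

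Levels were compared between genes per kilobase of exon, as CPM per kb. In controls *Glipr2* stood highest with 56.7 ± 4.0 CPM per kb, followed by *Glipr1* with 5.78 ± 2.08, *Crispld2* with 1.56 ± 0.465, *Crispld1* with 0.272 ± 0.0565 and *Pi16* with 0.0564 ± 0.0185 CPM per kb. No neighbours in that order overlapped over the 4 controls. With simvastatin *Pi16* moved from the last place to the second, with 2.76 ± 1.45 CPM per kb behind *Glipr2* with 38.6 ± 6.60. *Glipr1* followed with 1.63 ± 0.413, *Crispld2* with 0.496 ± 0.156 and *Crispld1* with 0.258 ± 0.0607 CPM per kb. In this group the ranges of *Pi16* (1.45 to 4.35) and *Glipr1* (1.07 to 1.98) overlapped, as did those of *Crispld2* (0.307 to 0.668) and *Crispld1* (0.209 to 0.336).

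The rest of the family was nearly silent. Of 9 other CAP genes in the files, 3 had no count in any library, and only *Pi15* was tested. *Pi15*, a close relative of *Crispld1* that lies near it on chromosome 1 (17601901 to 17630939), held 21 to 51 counts in controls and 34 to 61 with simvastatin. The groups overlapped, with means of 0.969 ± 0.354 and 1.35 ± 0.301 CPM. The log2 fold change of 0.48 ± 0.31 did not pass (edgeR adjusted p = 0.354). *Clec18a*, a lectin of the family, had 31 counts in simvastatin replicate 1 and 0 to 6 in each other library. The remaining 4 genes were at the limit of counting over 4 libraries a group. *R3hdml* had 8 counts in all controls and 0 in all treated libraries, and *Crisp1* had 5 and 2. *Glipr1l2* had 2 and 0, and *Crisp4* had 0 and 1.

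PI16 is known to inhibit cathepsin K, which processes the adipokine chemerin, and to inhibit the matrix protease MMP2. Of 8 genes of this axis 6 were tested. Of these 1 rose, 1 fell and 4 did not pass, beside 7.79% of all genes called higher and 9.61% lower. The median log2 fold change of the list was -0.25. *Mmp2* fell from 188 ± 22.1 to 73.4 ± 18.9 CPM, by a log2 fold change of -1.35 ± 0.18 (edgeR adjusted p = 0.000496). Its controls held 202, 172, 210 and 165 CPM and its treated libraries 55.0, 93.2, 59.6 and 85.9 CPM, again with the pair of set 1 lowest. *Ccrl2*, a chemerin-binding receptor, rose from 6.97 ± 0.587 to 13.1 ± 0.866 CPM, a log2 fold change of 0.91 ± 0.13 (edgeR adjusted p = 0.001). *Ctsk*, cathepsin K, stood at 5.17 ± 1.53 and 5.48 ± 0.458 CPM (edgeR adjusted p = 0.847). *Mmp14* and *Timp2*, a protease that activates MMP2 and an inhibitor of it, did not pass (edgeR adjusted p = 0.994 and 0.184). *Rarres2*, which encodes chemerin, stood at 1.09 ± 0.608 and 0.473 ± 0.159 CPM (edgeR adjusted p = 0.117). The chemerin receptor genes *Cmklr1* and *Gpr1* were too low to be tested, with 12 and 5 counts over all controls and 27 and 6 over all treated libraries. *Becn1*, the partner of GLIPR2, stood at 142 ± 9.83 and 164 ± 11.7 CPM (edgeR adjusted p = 0.167). The exons of *Becn1* share 43.9% of their bases with *Cntd1*, and those of *Rarres2* 33.6% with *Lrrc61*, each on the opposite strand. With the strand setting not stated, reads there cannot be told apart.

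Among genes that rose at least 4-fold, the 5 whose library-to-library pattern was most like that of *Pi16* were *Mfap5*, *Ngef*, *Dll1*, *Calca* and *Trpv4*. Likeness was Pearson's r of deviations of log2(CPM + 0.5) from the group mean over the 8 libraries, taken over 59 candidate genes, and it ran from 0.931 for *Trpv4* to 0.953 for *Mfap5*. *Mfap5*, a microfibril protein of elastic matrix, held 11.8, 2.30, 8.52 and 4.08 CPM with simvastatin against 0.258 to 0.712 CPM in controls. *Dll1*, a Notch ligand, held 6.46, 2.68, 7.64 and 2.47 CPM against 0.178 to 0.550 CPM. All 5 genes were higher in both treated libraries of set 1 than in both of set 2. *Pi16* had that split itself, and the genes were chosen for their likeness to it. The shared split thus follows largely from the choice and is no separate result.

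**Figure D3:**
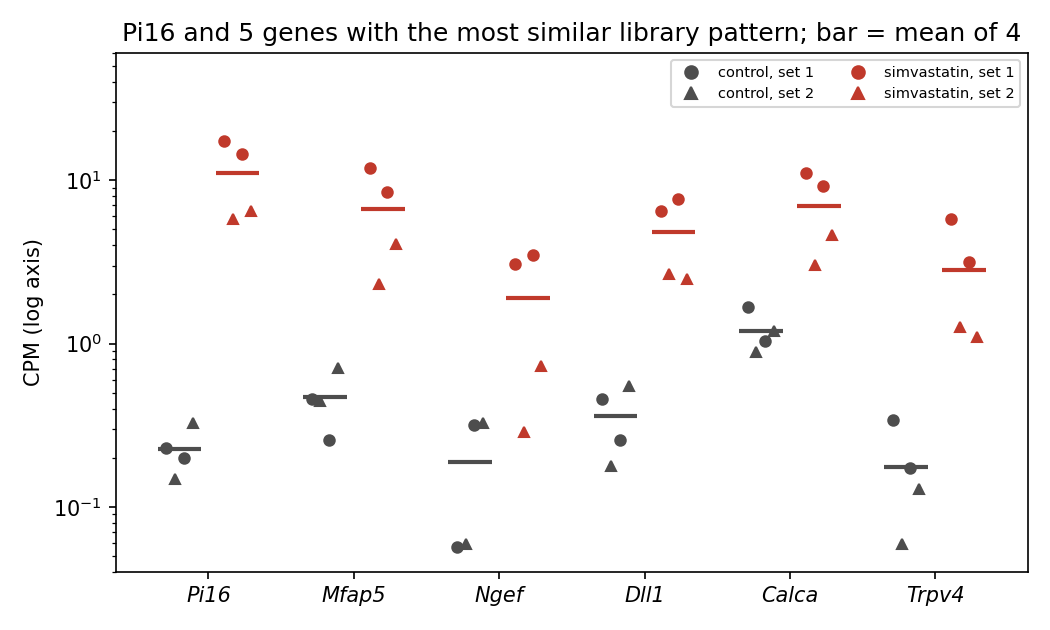
CPM of Pi16 and the 5 genes with the most similar pattern in each library on a log axis, with controls in grey, simvastatin libraries in red, circles for set 1, triangles for set 2 and a bar at the mean of 4. In each gene the 2 treated libraries of set 1 lie above the 2 of set 2, a split that the choice of genes by likeness to Pi16 favours.

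The rise of *Pi16* was set beside its chromosomal neighbours, a choice made after its values were seen. Of 12 other tested genes that start within 300 kb, 3 rose and the others did not pass, beside 7.79% of all genes called higher and 9.61% lower. *Cpne5*, a calcium-dependent phospholipid-binding copine that starts 81.1 kb before *Pi16*, rose from 6.61 to 16.9 CPM on average, a log2 fold change of 1.35 ± 0.16 (edgeR adjusted p = 0.000279). *Cdkn1a*, the gene of the cyclin-dependent kinase inhibitor p21, starts 228 kb before *Pi16* and had a log2 fold change of 0.67 ± 0.07 (edgeR adjusted p = 0.000168). *Trp53cor1*, the long noncoding RNA next to it, had 1.20 ± 0.21 (edgeR adjusted p = 0.00277). The nearest tested gene downstream, *Mtch1*, which encodes a mitochondrial outer membrane protein and starts 29.0 kb away, had 0.41 ± 0.22 and did not pass (edgeR adjusted p = 0.248).

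**Figure D4:**
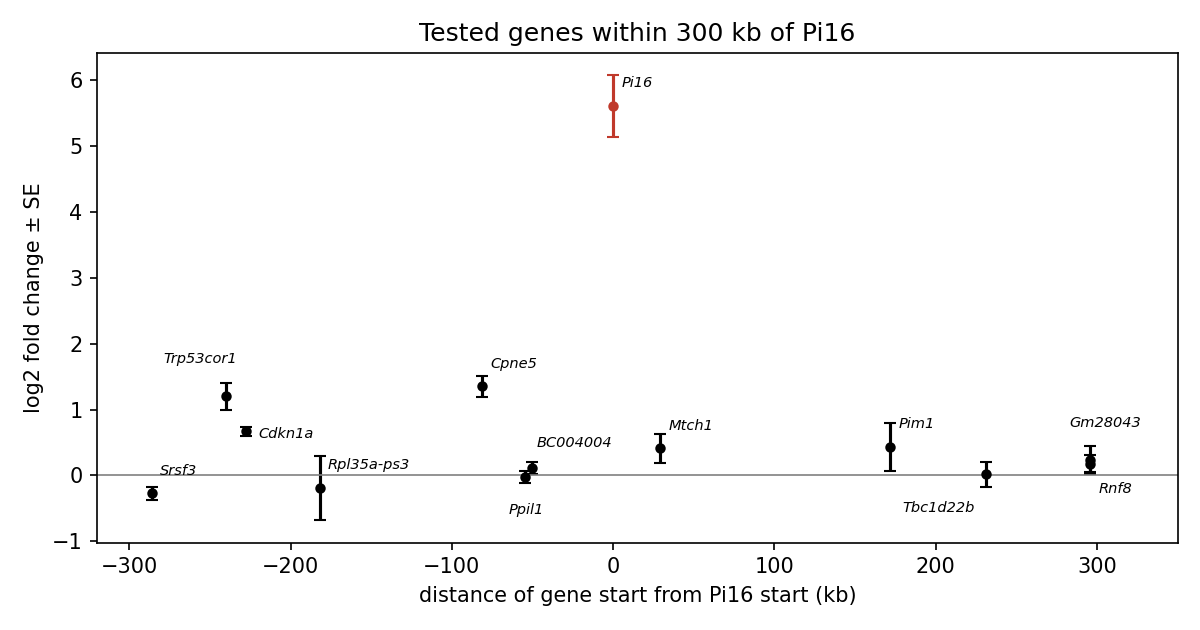
Fitted log2 fold change with its SE of tested genes against the distance in kb of their start from the start of Pi16 (red). Pi16 at 5.60 stands alone, and among the neighbours Cpne5 is highest with 1.35.

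Because *Pi16* is a known fibroblast marker, markers of other cell types were read beside it. In bulk samples fewer cells of a type and less RNA per cell cannot be told apart. Over all genes tested 7.79% were called higher and 9.61% lower, and the counts of markers below stand beside these shares. Of 6 markers of adventitial fibroblasts 4 were tested, and *Cd34* and *Ly6a* rose while the other 2 did not pass. The summed level of all 6 was 49.0 to 70.7 CPM in controls and 68.9 to 106 CPM with simvastatin, most of it *Cd34*, which endothelial cells also express. *Dpt* was low throughout, with 0.438 ± 0.211 and 0.320 ± 0.199 CPM. Of 7 tested markers of fibroblasts and mesenchyme 3 fell (*Pdgfra*, *Col3a1* and *Tcf21*) and 4 did not pass. The summed level of the list was 882 to 1980 CPM in controls and 915 to 1100 CPM with simvastatin. The 4 that did not pass went both ways. Their log2 fold changes were 0.53 for *Dcn*, 0.11 for *Lum*, -0.39 for *Col1a1* and -0.62 for *Postn*. The 3 falls lay mostly in set 1, as *Pdgfra* went from 37.5 to 8.18 CPM there and from 15.6 to 13.6 CPM in set 2. *Col3a1* went from 566 to 188 CPM in set 1 and from 288 to 274 CPM in set 2. *Tcf21* went from 16.5 to 2.71 CPM in set 1 and from 7.07 to 6.30 CPM in set 2. The difference between sets passed the interaction test for *Col3a1* and *Tcf21* (edgeR adjusted p = 0.0277 and 0.0351), beside 0.0558% of all genes, and did not pass for *Pdgfra* (edgeR adjusted p = 0.0613). All 4 smooth muscle markers fell, from a summed 2500 to 3610 CPM to 429 to 644 CPM. For *Acta2* the mean went from 3000 to 218 CPM in set 1 and from 2170 to 364 CPM in set 2. That difference between sets also passed the interaction test (edgeR adjusted p = 0.0379). Of 6 tested macrophage markers 3 fell, of 7 endothelial markers *Tek* rose and *Emcn* fell, and of 6 epicardial markers *Msln* rose while *Wt1* and *Aldh1a2* fell. Every listed marker had counts. Their part in the changes of *Pi16*, *Crispld2*, *Glipr1* and *Glipr2* was not tested.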

How the data were processed

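The 4 control and 4 simvastatin RNA-seq libraries were analysed from raw counts per gene deposited by the authors, 1 table per library, with exon lengths. The submitters' processing notes name featureCounts (Subread 1.5.2), STAR 2.5.2b and Trimmomatic 0.36, and the builds GRCm38 and mm10. The labels do not state the annotation release, the strand setting or the read layout. GENCODE M21 gave symbols for 99.3% of identifiers, and coordinates are those of the files. No pair of libraries within a group agreed within sampling noise, so none was counted as a copy.

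Genes were kept by filterByExpr (16126 of 32927 with any count) and tested with edgeR 4.0.16 in R 4.3.3 (quasi-likelihood F test, TMM scaling, treatment as the only term, two-sided, Benjamini-Hochberg over all genes). CPM used the same scaled totals. The difference between sets was tested with an interaction term. Alternatives were DESeq2 size factors, library totals, DESeq2 1.42.0, limma-voom (limma 3.58.1), 2 other filters, a replicate block, set as a term, each set alone and each library left out. Both fits were tested on simulated data with known changes, and the interaction fit recovered far fewer of them than the treatment fit. The simulated noise was estimated with treatment as the only term, so it held any spread between sets. This recovery therefore does not measure what the interaction fit can detect in these libraries. With 2 libraries per group in each set, a difference between sets that did not pass may still have been missed.

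The CAP genes, the other lists (partners of PI16, Beclin 1, glucocorticoid-responsive and p53 genes, cell type markers) and the rule for named genes were chosen with earlier results of these data known. The rule named all CAP genes with a count, 6 known partners of PI16, *Becn1* and the 5 genes most like *Pi16* among those with a log2 fold change of at least 2, an adjusted p under 0.05 and a mean of at least 1 CPM.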

Additional observations from a re-analysis of the deposited data

Results flagged for a closer look

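*Ctsk*, cathepsin K, had 1 control library apart from the other 3. Control replicate 1 held 7.46 CPM, and control replicates 2 to 4 held 4.59, 4.26 and 4.37 CPM. *Timp2*, an inhibitor of matrix proteases, had 1 treated library apart. Simvastatin replicate 1 held 34.6 CPM, and simvastatin replicates 2 to 4 held 25, 25.2 and 26 CPM. These were the only such libraries in the 84 groups of 4 libraries searched (42 named genes in each treatment group). Chance alone gives about 1 in 20 groups. Not every gene named above was searched. *Clec18a*, which was left out, had 31 counts in simvastatin replicate 1 and 0 to 6 in each other library.

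The change of 2 mesenchymal markers and of the smooth muscle marker *Acta2* with simvastatin differed between the sets in an interaction test over all genes. For *Col3a1*, a fibrillar collagen, the log2 fold change was higher in set 2 than in set 1 by 1.52 ± 0.15 (SE; edgeR adjusted p = 0.0277). For *Tcf21*, a transcription factor of the epicardial and fibroblast lineage, it was higher by 2.44 ± 0.29 (edgeR adjusted p = 0.0351). For *Acta2* it was higher by 1.21 ± 0.15 (edgeR adjusted p = 0.0379).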

How the results depend on the processing

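The falls of *Crispld2* and *Glipr1* passed under all 18 alternatives, with log2 fold changes from -1.84 to -1.44 (adjusted p up to 0.0253) and from -2.51 to -1.09 (adjusted p up to 0.0162). *Glipr2* fell under all 18, from -0.85 to -0.31, and failed the threshold only in set 2 alone (-0.31, adjusted p = 0.053). *Crispld1* passed under none. Without one library it ranged from -0.23 to 0.04, with a sign above 0 without control replicate 1 (0.04) or simvastatin replicate 1 (0.01) or 2 (0.00). The log2 fold change of *Pi16* ranged from 5.29 to 5.81 without one library, and was 4.69 in set 2 alone. The order of levels per length in controls was the same for all 5 genes by plain CPM and with library totals alone.

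Over all genes, set 1 alone gave 1627 calls (648 higher, 979 lower) against 2805 (1256 and 1549). Some alternatives gave more calls, with 2975 in set 2 alone, 3362 with set as a term and 3534 with DESeq2. Without one library 2002 to 2462 were called, of which 817 to 1115 were higher; the 817 came without simvastatin replicate 3. With the replicate number as a block 2131 genes were called, and 3 of the CAP genes still fell, with *Glipr2* at adjusted p = 0.0363. Same-numbered libraries did not deviate together (r from -0.21 to 0.156, and 0 of 4 numbers matched best with their own), so the numbers are not taken as pairs. The block ended no call of a CAP gene. Depth limited *Pi16* in controls, with 5 to 10 counts per library, and *Crispld1*.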

Other observations

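Lists around the other CAP proteins were read in the same fit, beside 7.79% of all genes called higher and 9.61% lower. Of 8 autophagy genes around Beclin 1, *Pik3c3*, the lipid kinase of the Beclin 1 complex, rose from 29.1 ± 1.67 to 37.1 ± 1.03 CPM. None fell, and the list median log2 fold change was 0.13. Of 10 targets of p53, the factor to which *Glipr1* is known to respond, *Cdkn1a*, *Bbc3* and *Pmaip1* rose and none fell, with a median of 0.01, while *Glipr1* itself fell. Of 7 glucocorticoid-responsive genes *Tsc22d3* alone rose, from 141 ± 17.6 to 605 ± 36.2 CPM, and none fell, with a median of 0.27, while *Crispld2*, also known to respond to glucocorticoids, fell. Of 4 tested erythroid genes, *Hbb-bt* and *Hbb-y* rose, with the list's summed level at 6.81 to 12.5 CPM in controls and 14.8 to 34.2 CPM with simvastatin.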
